A study of Mus musculus with 6 samples.

Results

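The endoplasmic reticulum (ER) folds and checks every protein that a beta cell secretes, and 37 genes of that machinery were followed here in whole islets of mice lacking Abca12 in beta cells. They were taken by symbol from a fixed list, and all 37 were found among the 34245 genes of the expression table. By role they comprised 4 sensors and transducers, 4 chaperones of the HSP70 and HSP90 families, 4 DnaJ co-chaperones, 6 disulfide isomerases, 5 lectin chaperones and other folding factors, 3 genes of translocation and the ER membrane, and 11 genes of ER-associated degradation (ERAD). Poly(A) libraries came from 3 knockout mice (KO), whose floxed Abca12 allele (tm1d) had been deleted by Rip1-Cre, and 3 controls (HET), which carried Rip1-Cre and were heterozygous for the floxed allele. All mice were C57BL/6J and 5 weeks old. Cre under the rat insulin promoter acts in beta cells, whereas whole islets were sequenced, so RNA of other islet cells is in every value. Abca12 encodes a lipid transporter of the ABCA family, and the comparison asks which islet transcripts differ when it is lost.

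Unfolded protein in the ER is sensed by ATF6, IRE1 and PERK. ATF6 is cleaved to a transcription factor, IRE1 splices Xbp1 mRNA so that it encodes an active factor, and PERK slows translation. ATF6 and XBP1 raise the transcription of ER chaperones, folding enzymes and ERAD genes, and beta cells lean on this response because proinsulin is folded in the ER in large amounts. ERAD draws proteins that fail to fold back into the cytosol, where the proteasome destroys them.

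ATF6 and XBP1 act through short promoter elements, and the sequences below show which members carry one next to their start. Windows from 250 bases before to 50 bases after the gene's start (RefSeq, GRCm38.p6) were given for 30 of the 37 members. No window was used for Atf6, Hspa13, Hyou1, Manf, Sec61a1, Derl1 and Erlec1. Each window was searched on both strands for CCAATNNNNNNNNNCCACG (the ER stress element, ERSE), ATTGGNCCACG (ERSE-II) and TGACGTGG (the unfolded protein response element, UPRE). The printed sites read along the strand on which the motif lies, with 8 bases on each side, and the capitals mark the letters the motif fixes.
Hspa5 (ERSE, chr2:34772017-34772051, plus strand): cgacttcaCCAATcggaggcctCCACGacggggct
Hsp90b1 (ERSE, chr10:86705630-86705664, minus strand): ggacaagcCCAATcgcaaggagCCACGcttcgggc
Hsp90b1 (ERSE, chr10:86705525-86705559, plus strand): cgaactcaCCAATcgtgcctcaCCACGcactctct
Dnajc3 (ERSE, chr14:118937819-118937853, plus strand): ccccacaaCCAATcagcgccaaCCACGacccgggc
Pdia6 (ERSE, chr12:17266483-17266517, plus strand): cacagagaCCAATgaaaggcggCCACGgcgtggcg
Calr (ERSE, chr8:84847067-84847101, plus strand): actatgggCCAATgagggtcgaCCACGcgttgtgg
Canx (ERSE, chr11:50325792-50325826, minus strand): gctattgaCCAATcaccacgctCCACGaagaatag
Creld2 (ERSE, chr15:88819512-88819546, minus strand): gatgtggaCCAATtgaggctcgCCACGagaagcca
Syvn1 (ERSE, chr19:6046524-6046558, plus strand): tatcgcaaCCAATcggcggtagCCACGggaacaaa
Derl3 (ERSE, chr10:75893234-75893268, minus strand): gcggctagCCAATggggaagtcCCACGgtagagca
Herpud1 (ERSE-II, chr8:94386369-94386395, plus strand): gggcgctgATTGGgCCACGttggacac
Dnajb11 (ERSE-II, chr16:22857844-22857870, plus strand): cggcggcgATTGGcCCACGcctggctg

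The ERSE was found in the windows of 9 of the 30 members, against 37 of 27025 genes with a window in the whole table (0.137%). Hsp90b1 carried 2 copies, on opposite strands. The ERSE-II was found in 2 members, Herpud1 and Dnajb11, and in 12 of 27025 genes (0.0444%). Together 11 of 30 members (36.7%) held one of these elements, against 0.181% of all genes with a window. The elements are known from promoters of ER stress genes, and the members were listed as genes of that kind. The higher share among them is therefore a description and not a test. The UPRE was found in 2 members, Txndc5 and Txndc11, against 0.714% of all genes. The whole windows of Hspa5, the most abundant member, and of Herpud1, the most abundant ERAD gene, show the single exact match of each.
Hspa5 promoter window (chr2:34771840-34772139, plus strand): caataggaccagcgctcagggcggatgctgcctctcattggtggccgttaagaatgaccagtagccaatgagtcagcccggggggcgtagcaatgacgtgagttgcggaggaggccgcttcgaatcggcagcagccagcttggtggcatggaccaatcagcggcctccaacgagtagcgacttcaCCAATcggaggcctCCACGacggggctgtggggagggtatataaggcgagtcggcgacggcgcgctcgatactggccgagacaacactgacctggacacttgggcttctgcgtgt
Herpud1 promoter window (chr8:94386179-94386478, plus strand): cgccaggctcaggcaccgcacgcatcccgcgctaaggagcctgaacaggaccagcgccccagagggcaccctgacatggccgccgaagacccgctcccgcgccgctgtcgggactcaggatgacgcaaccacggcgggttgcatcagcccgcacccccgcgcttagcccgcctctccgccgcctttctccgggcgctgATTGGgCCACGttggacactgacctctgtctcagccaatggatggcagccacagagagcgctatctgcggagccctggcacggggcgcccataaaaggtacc
Only exact matches were counted, so a window may also hold near matches that are not marked. A match describes the letters only. Whether a factor bound there was not measured.

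The 6 libraries held between 27447026 and 35511008 reads, and the least abundant member in any library, Derl3, still had 340 reads. Abca12 itself had 2, 0 and 0 reads in KO 1 to 3 and 0 reads in each HET library, so the deletion could not be checked at this depth. KO 2 held both Xist (13659 reads) and RNA of 4 Y-linked genes (2968 reads in all), and is therefore not shown to come from 1 animal; the other libraries held mainly one or the other. The libraries also fell into 2 sets by the animal code in their labels: codes B114 to B125 (KO 1, KO 2 and HET 1) lay apart from codes B126 to B130 (KO 3, HET 2 and HET 3) on the axis that took 70.5% of the variance over all genes. At the lower codes, pancreatic acinar transcripts accounted for 0.733% (KO 1), 2.79% (KO 2) and 6.69% (HET 1) of the reads on listed genes. At the higher codes they accounted for 0.172% (KO 3), 0.153% (HET 2) and 0.0891% (HET 3). Of 31 acinar markers, 30 were in the table, 28 were tested and none was at 0 in all 6 libraries; their summed level ran from 1180 to 18145 RPM (reads scaled to a common library total) in KO libraries and from 590 to 44055 RPM in HET libraries. Beta-cell markers took 16.7% to 21.5% of listed reads in KO libraries and 16.7% to 17.7% in HET libraries, which fits islets by their defining transcripts. In bulk islet RNA, fewer cells of a type and less RNA per cell cannot be told apart.

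Per kilobase of exon, the 5 most abundant members over all 6 libraries were chaperones and folding enzymes. Hspa5 (BiP, the main HSP70 chaperone of the ER) had a mean level of 494 RPM per kb, Calr (calreticulin) 390, Hsp90b1 (GRP94, the HSP90 of the ER) 317, P4hb (protein disulfide isomerase) 277 and Pdia3 (ERp57, which works with the lectin chaperones) 241. Herpud1, a scaffold of the ERAD ubiquitin ligase, had 206 RPM per kb. The sensors stood far below these chaperones, with 13.7 RPM per kb for Atf6, 16.7 for Eif2ak3 (PERK) and 27.3 for Ern1 (IRE1), whereas Xbp1 had 96.8. Txndc11, a thioredoxin-related protein of the ER membrane, was the lowest of the 37 at 8.09 RPM per kb. The 37 genes together took 1.88%, 2.09% and 1.604% of listed reads in KO 1 to 3, against 2.79%, 1.54% and 1.59% in HET 1 to 3. HET 1 had the highest share, and the KO values lay within the range of the HET values.

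**Figure D1:**
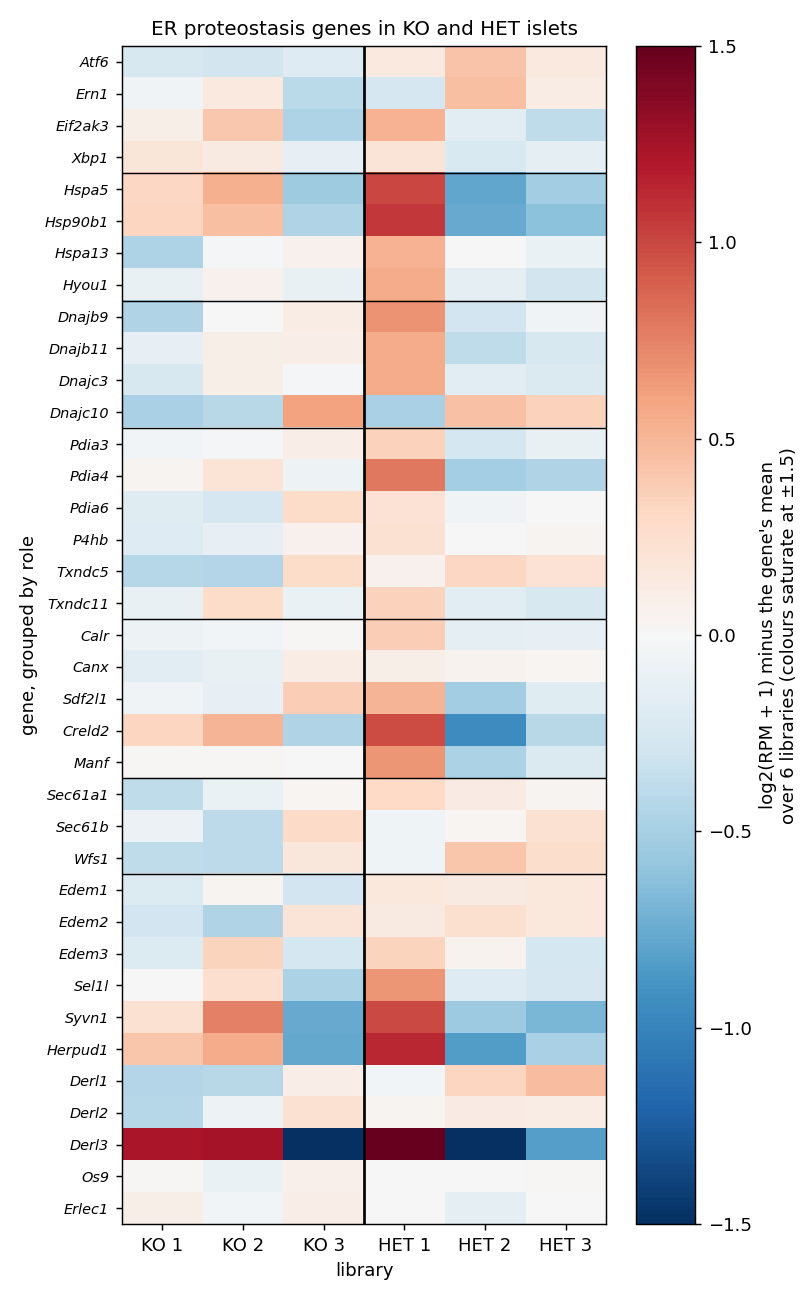
Level of each of the 37 genes in the 6 libraries (columns), as log2(RPM + 1) minus the gene's own mean over the libraries, grouped by role in rows and with KO left of HET. HET 1 holds the highest value for 24 of the 37 genes, and Derl3, whose colours saturate, spans the widest range.

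No ER proteostasis gene differed between KO and HET islets past the threshold. Tested with limma on log2(RPM + 1) over 14238 genes with Benjamini-Hochberg adjustment, 0 of the 37 members passed an adjusted p of 0.05, and neither did any other gene (0% of all genes tested). The lowest adjusted p over all genes was 0.9998. On log2(RPM + 1), means were lower in KO for 22 of the 37 members (59.5%, against 48.6% of all genes). All counts of lower or higher means are on this log2 scale, and counts on mean RPM can differ. The median log2 difference, KO minus HET, was -0.10 over the members and 0.01 over all genes. Among all genes averaging at least 5 RPM, 52.1% had a lower mean in KO, with a median of -0.01. An unadjusted p under 0.05 was reached by 1 member, Atf6, which was lower in KO, against 0.471% of all genes in that direction. The 3 KO libraries all lay below the 3 HET libraries for 3 members (Atf6, Sec61a1 and Edem1), where 1.54% of all genes did so, and all above them for 0 members, where 4.2% of all genes did so. These counts depend on single libraries. Without KO 2 they were 3 lower (4.54% of all genes) and 2 higher (6.34%), and without KO 3 they were 12 lower (9.15%). Without HET 1 they were 5 lower (19.4%) and 10 higher (13.7%). By role the median log2 difference was -0.09 for sensors and transducers, 0.05 for HSP70 and HSP90 chaperones, -0.16 for DnaJ co-chaperones, -0.04 for disulfide isomerases, 0.02 for lectin chaperones and other folding factors, -0.30 for translocation and the ER membrane, and -0.09 for ERAD.

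**Figure D2:**
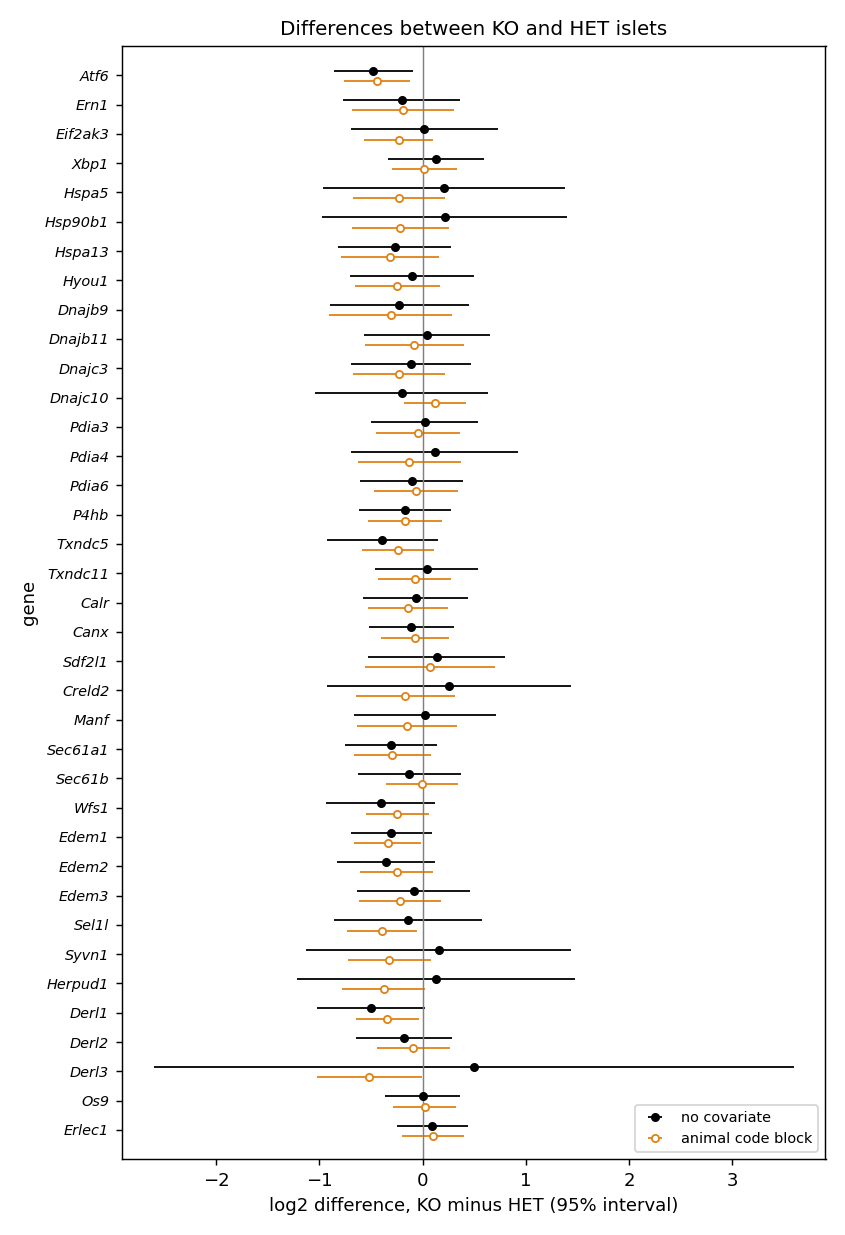
Log2 difference, KO minus HET, with its 95% interval for each of the 37 genes, from limma without a covariate (filled) and with the animal code range as a block (open). No gene passed the adjusted threshold in either fit; the intervals of Derl3, Herpud1, Syvn1, Creld2, Hspa5 and Hsp90b1 narrow most with the block.

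Among the sensors, Atf6 (ENSMUSG00000026663.6, chromosome 1, 170704674 to 170867771, GRCm38, minus strand) had the lowest p of the 37. It measured 105, 103 and 109 RPM in KO 1 to 3, against 138, 168 and 138 RPM in HET 1 to 3. Every KO library was below every HET library, and the 3 KO values lay close together. Atf6 averaged 106 ± 3.06 RPM in KO islets and 148 ± 17.4 RPM in HET islets (SD, n = 3 each). The log2 difference was -0.48 (95% interval -0.86 to -0.10; limma unadjusted p = 0.021, adjusted p = 0.9998). The difference was -0.46 without KO 2, and over all alternatives it ran from -0.39 to -0.53, with no adjusted p below 0.396. By limma, leaving out KO 1, KO 2 or HET 2 moved its unadjusted p above 0.05, to 0.0628, 0.0668 and 0.084.

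The other sensors overlapped between the groups. Ern1, which encodes the IRE1 nuclease, had 211, 243 and 166 RPM in KO libraries and 184, 300 and 237 RPM in HET libraries. Its highest value was HET 2 and its lowest KO 3, with a log2 difference of -0.20 (95% interval -0.77 to 0.36). Eif2ak3, the PERK kinase, had 103, 129 and 70.6 RPM in KO libraries and 141, 86.5 and 74.9 RPM in HET libraries, a difference of 0.02 (95% interval -0.69 to 0.73). The values followed the animal code, with all 3 lower-code libraries above the higher-code ones, rather than genotype. A poorly expressed antisense gene, Gm43292 (11.8 RPM on average), shares 485 exon bases with Eif2ak3, and the strand setting of the counting is not given in the sources used here. Xbp1, the target of IRE1 splicing, had 353, 342 and 287 RPM in KO libraries and 357, 266 and 281 RPM in HET libraries, a difference of 0.13 (95% interval -0.34 to 0.59). These gene totals do not separate spliced from unspliced Xbp1 mRNA.

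Among the HSP70 and HSP90 chaperones, Hspa5 and Hsp90b1 varied widely between animals of the same genotype, and Hspa13 and Hyou1 less so. Hspa5 (ENSMUSG00000026864.13, chromosome 2, 34771970 to 34777547, plus strand), whose ERSE is printed above, had 2334, 2717 and 1307 RPM in KO libraries, against 3765, 1098 and 1308 RPM in HET libraries. KO 1, KO 2 and HET 1 were high, KO 3, HET 2 and HET 3 were low, and all 3 KO values lay within the range of the HET values. Hspa5 averaged 2119 ± 729 RPM in KO islets and 2057 ± 1483 RPM in HET islets (SD, n = 3 each). The log2 difference was 0.21 (95% interval -0.97 to 1.38). An effect of about 2-fold in either direction therefore lies inside or near the interval.

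Hsp90b1 (chromosome 10, 86690209 to 86705509, minus strand), which folds a narrower set of clients including integrins and Toll-like receptors, followed the same pattern. It had 1434, 1567 and 844 RPM in KO libraries and 2396, 679 and 748 RPM in HET libraries, a difference of 0.21 (95% interval -0.97 to 1.40). The entry Gm15344 (50.8 RPM) overlaps it by 84 exon bases on the same strand, so a small part of the reads may be shared. Hspa13, an HSP70-related ATPase of microsomes, had 74.8, 102 and 108 RPM in KO libraries and 148, 103 and 96.0 RPM in HET libraries. HET 1 alone was high, and the difference was -0.27 (95% interval -0.82 to 0.27). Hyou1 (GRP170), which reloads BiP with nucleotide, ranged from 645 to 727 RPM in KO libraries and from 573 to 1028 RPM in HET libraries, again with HET 1 on top.

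**Figure D3:**
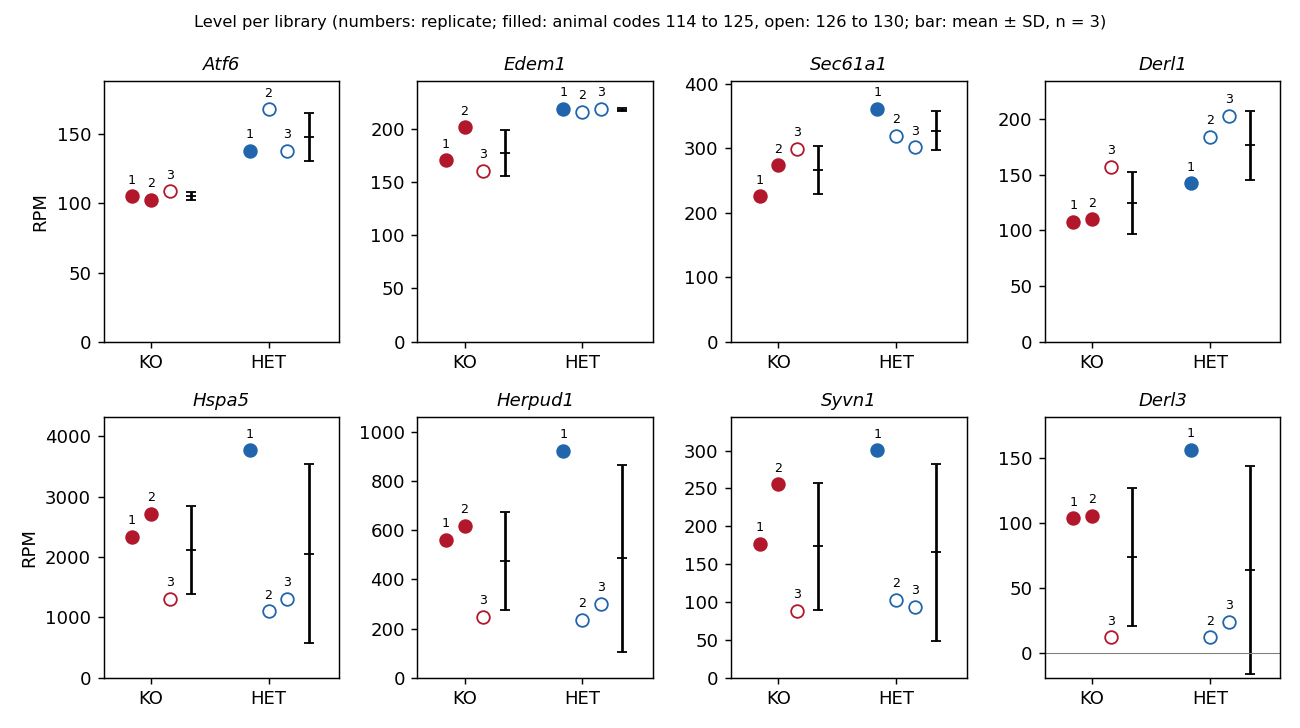
Level in RPM of 8 members in each library, KO left of HET, with the replicate number beside each point and the mean ± SD (n = 3) as a bar. In Atf6, Edem1 and Sec61a1 all KO points lie below all HET points, whereas Hspa5, Herpud1, Syvn1 and Derl3 are high in KO 1, KO 2 and HET 1 and low in KO 3, HET 2 and HET 3; the SD bar of Derl3 in HET reaches below 0 because its values are so unequal.

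The DnaJ co-chaperones, which bring substrates to BiP and trigger its ATPase, had no pair of groups that did not overlap. Dnajb9 (ERdj4, which also holds IRE1 inactive) measured 207, 285 and 306 RPM in KO libraries and 452, 233 and 274 RPM in HET libraries. Its highest value was HET 1 and its lowest KO 1, and the difference was -0.23 (95% interval -0.90 to 0.45). Dnajc10 (ERdj5), a reductase that opens disulfide bonds before degradation, had 66.8, 70.4 and 143 RPM in KO libraries and 67.1, 127.5 and 120 RPM in HET libraries. It ran opposite to Hspa5, with the 3 lower-code libraries all near 70 RPM, and the KO minus HET difference was -0.20 (95% interval -1.04 to 0.64). Dnajb11 (ERdj3) ranged from 110 to 130 RPM in KO libraries and from 92.0 to 177 RPM in HET libraries, and Dnajc3 (P58IPK) from 244 to 304 RPM in KO libraries and from 248 to 423 RPM in HET libraries.

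Among the disulfide isomerases, Txndc5 (ERp46) had the lowest p. It had 91.8, 91.4 and 150 RPM in KO libraries and 130, 154 and 144 RPM in HET libraries, a difference of -0.39 (95% interval -0.93 to 0.15). KO 1 and KO 2 were below all HET libraries, but KO 3 was not. It shares 224 exon bases with Bmp6 (2.01 RPM) on the opposite strand. P4hb, which also serves as a subunit of collagen prolyl hydroxylase, had 692, 723 and 823 RPM in KO libraries and 923, 786 and 810 RPM in HET libraries, a difference of -0.17 (95% interval -0.62 to 0.28). Pdia4 (ERp72) was the only isomerase whose libraries spanned more than 2-fold, with 210, 236 and 194 RPM in KO libraries and 354, 143 and 150 RPM in HET libraries. HET 2 and HET 3 lay below all KO libraries and HET 1 above all of them, so the difference of 0.11 (95% interval -0.69 to 0.92) averages opposite deviations. Pdia3 had a difference of 0.02, Pdia6 (P5) of -0.11 and Txndc11 of 0.04.

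The lectin chaperones were among the steadiest members. Calr, which binds the sugars of new glycoproteins in the ER lumen, had 1058, 1081 and 1130 RPM in KO libraries and 1438, 1015 and 1021 RPM in HET libraries, a difference of -0.07 (95% interval -0.58 to 0.44). Its membrane-bound relative Canx (calnexin) had 346, 357 and 416 RPM in KO libraries and 410, 399 and 394 RPM in HET libraries, a difference of -0.11 (95% interval -0.52 to 0.30). Only HET 1 departed from the rest in Calr, and no library departed far in Canx. The smaller folding factors moved more between animals. Creld2, a secreted ER stress-responsive protein, had 188, 213 and 109 RPM in KO libraries and 296, 77.4 and 112 RPM in HET libraries. Manf, a neurotrophic factor that binds BiP and that beta cells need to survive in mice, had 272, 271 and 268 RPM in KO libraries and 425, 193 and 231 RPM in HET libraries. The 3 KO values of Manf were nearly equal and lay between HET 1 and the other HET libraries. Manf shares 166 exon bases with the antisense gene 4930524O07Rik (16.6 RPM). Sdf2l1, which sits in a complex with BiP and ERdj3, had 105, 100 and 142 RPM in KO libraries and 156, 75.6 and 95.8 RPM in HET libraries. The differences were 0.25 for Creld2 (95% interval -0.93 to 1.43), 0.02 for Manf (95% interval -0.66 to 0.71) and 0.13 for Sdf2l1 (95% interval -0.53 to 0.80).

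All 3 genes of translocation and the ER membrane had lower mean levels in KO. Sec61a1 (ENSMUSG00000030082.14, chromosome 6, 88503579 to 88518905, minus strand), the pore of the channel through which preproinsulin enters the ER, had 225, 274 and 299 RPM in KO libraries and 361, 319 and 301 RPM in HET libraries. The groups did not overlap, but KO 3 and HET 3 differed by less than 2 RPM. Sec61a1 averaged 266 ± 37.7 RPM in KO islets and 327 ± 30.5 RPM in HET islets (SD, n = 3 each), a difference of -0.30 (95% interval -0.75 to 0.14). Its antisense neighbour Gm44170 (56.9 RPM) shares 549 exon bases with it, so its reads cannot be told apart where the genes overlap. Wfs1 encodes wolframin, an ER membrane protein whose loss causes Wolfram syndrome with diabetes. It had 108, 108 and 159 RPM in KO libraries and 135, 189 and 171 RPM in HET libraries, a difference of -0.41 (95% interval -0.93 to 0.12). KO 3 lay above HET 1, so the groups overlapped. Sec61b, a small subunit of the same channel, had 96.9, 78.4 and 126.5 RPM in KO libraries and 98.3, 106 and 121 RPM in HET libraries, a difference of -0.13 (95% interval -0.63 to 0.37).

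Of the 11 ERAD genes, 4 were higher in all libraries with codes B114 to B125 (16.8% of all genes were) and 3 were lower in all of them (31.3% of all genes were). Derl1 (ENSMUSG00000022365.6, chromosome 15, 57869502 to 57892418, minus strand), a membrane protein of the channel through which ERAD clients leave, had the largest negative difference of the 37. It measured 107, 110 and 157 RPM in KO libraries, against 142, 184 and 203 RPM in HET libraries. KO 1 and KO 2 were below all HET libraries, whereas KO 3 was above HET 1. Derl1 averaged 124.7 ± 28.0 RPM in KO islets and 176 ± 31.0 RPM in HET islets (SD, n = 3 each). The log2 difference was -0.50 (95% interval -1.03 to 0.02; limma unadjusted p = 0.058, adjusted p = 0.9998). Edem1 (chromosome 6, 108828641 to 108859356, plus strand), which marks misfolded glycoproteins by trimming mannose, had 170, 201 and 160 RPM in KO libraries and 219, 216 and 219 RPM in HET libraries. The 3 HET values were almost the same, and all KO libraries lay below them. The difference in Edem1 was -0.30 (95% interval -0.70 to 0.09). Its relatives Edem2 and Edem3 had differences of -0.36 (95% interval -0.83 to 0.12) and -0.09 (95% interval -0.64 to 0.46).

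The ubiquitin ligase core of ERAD was high in the same libraries as Hspa5 and Hsp90b1. Syvn1 (HRD1), the ligase itself, had 177, 255 and 88.3 RPM in KO libraries and 300, 102 and 93.4 RPM in HET libraries, a difference of 0.16 (95% interval -1.13 to 1.44). Its partner Sel1l had 314, 371 and 224 RPM in KO libraries and 494, 272 and 262 RPM in HET libraries, a difference of -0.14 (95% interval -0.86 to 0.58). In both genes KO 1, KO 2 and HET 1 were above the other libraries, and KO 3 was the lowest of all. Herpud1 (chromosome 8, 94386438 to 94395377, plus strand), with the ERSE-II printed above, had 561, 619 and 247 RPM in KO libraries and 924, 235 and 300 RPM in HET libraries. The difference was 0.13 (95% interval -1.22 to 1.48). Derl3 (chromosome 10, 75893413 to 75895941, plus strand), a derlin known for expression in secretory tissues, had 103, 105 and 12.4 RPM in KO libraries and 156, 12.4 and 24.2 RPM in HET libraries. It spanned 12.6-fold over the 6 libraries, the widest range of the 37, and its KO minus HET difference of 0.49 had a 95% interval from -2.60 to 3.59.

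Os9 and Erlec1 varied little between libraries. Os9, a lectin that hands glycoproteins to the ligase, ranged from 150 to 169 RPM in KO libraries and from 160 to 162 RPM in HET libraries, and its log2 difference was -0.00 (95% interval -0.37 to 0.36). Erlec1, the second such lectin, ranged from 51.0 to 56.5 RPM in KO libraries and from 47.6 to 52.8 RPM in HET libraries, with a difference of 0.09 (95% interval -0.25 to 0.44). Derl2, another derlin, ranged from 57.8 to 91.9 RPM in KO libraries and from 80.5 to 84.8 RPM in HET libraries, with a difference of -0.18 (95% interval -0.65 to 0.28). It overlaps Mis12 (16.3 RPM) by 231 exon bases on the opposite strand.

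Most of the members spanning over 2-fold divided by the range of animal codes, and none of them divided by genotype. Dnajb9 and Sdf2l1, which also spanned over 2-fold, divided by neither. In 12 of the 37 genes all 3 libraries with codes B114 to B125 lay above all 3 with codes B126 to B130, against 16.8% of all genes tested: Hspa5, Hsp90b1, Hyou1, Pdia4, Creld2, Manf, Sel1l, Syvn1, Herpud1, Derl3, Eif2ak3 and Xbp1. In 7 genes the lower-code libraries all lay below, against 31.3% of all genes: Dnajc10, Txndc5, Sec61b, Wfs1, Edem2, Derl1 and Derl2. Over all members, the median log2 difference between lower and higher codes was 0.16, against -0.11 over all genes. A spread of more than 2-fold over the 6 libraries was seen in 12 members and in 34.2% of all genes. The cut between the code ranges was placed where expression over all genes was known to divide, so these counts are descriptions. Acinar transcripts (values above) and heat shock transcripts of the cytosol and mitochondria were both higher at the lower codes. Heat shock transcripts took 0.628% and 0.689% of listed reads in KO 1 and KO 2 and 0.729% in HET 1, but 0.199% in KO 3 and 0.149% and 0.154% in HET 2 and HET 3. Their part in the members' pattern was not tested.

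Members with an ERSE or ERSE-II made up the upper end of this spread. Their median log2 difference between lower and higher codes was 1.21 (11 genes). It was -0.00 in the 19 members with a window and no exact match to either element. For 6 of the 11 (Hspa5, Hsp90b1, Creld2, Syvn1, Herpud1 and Derl3), all lower-code libraries lay above all higher-code libraries, as they did for 16.8% of all genes. The log2 differences ran from 1.21 in Creld2 to 2.86 in Derl3 for these genes. Dnajb11, Dnajc3, Calr, Canx and Pdia6 hold an element as well, yet differed little between the code ranges, from -0.15 in Pdia6 to 0.34 in Dnajb11. Among members with neither element, the differences ran up to 0.69 in Pdia4 and down to -0.92 in Dnajc10.

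**Figure D4:**
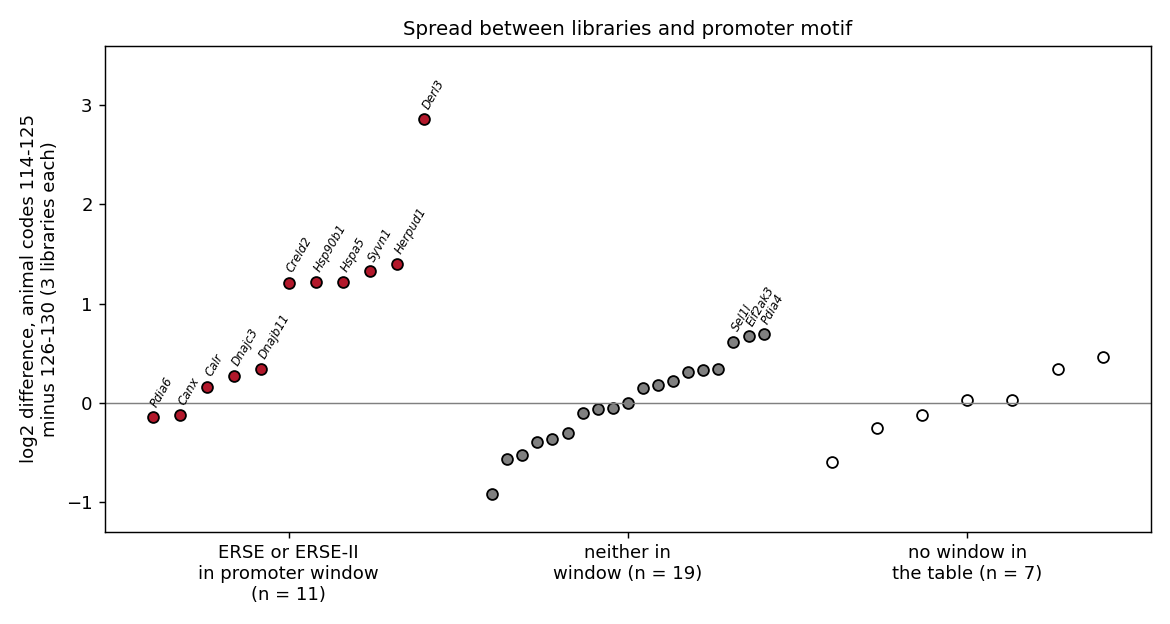
Log2 difference between the 3 libraries with animal codes B114 to B125 (KO 1, KO 2, HET 1) and the 3 with codes B126 to B130 (KO 3, HET 2, HET 3) for each of the 37 genes, split by whether the promoter window holds an ERSE or ERSE-II. Of the 11 genes with an element, 6 lie above 1, and no gene of the other classes does.

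Within the lower codes, HET 1 stood above both KO libraries across the set. HET 1 exceeded both KO 1 and KO 2 for 33 of the 37 members, where 21.9% of all genes did so, and it was the highest of all 6 libraries for 24 members, against 10.6% of all genes. Relative to HET 1, the mean of KO 1 and KO 2 was lower by a log2 difference of -0.89 in Dnajb9, -0.76 in Hspa13, -0.58 in Hspa5 and -0.65 in Herpud1. The 4 exceptions were Ern1 (0.30), Dnajc10 (0.03), Erlec1 (0.02) and Os9 (-0.03). HET 1 is 1 library, and it is also the one with the largest acinar share, 6.69% of listed reads. Within the higher codes the direction was not shared: KO 3 was below both HET 2 and HET 3 for 11 members, against 37.4% of all genes. KO 3 lay below their mean by a log2 difference of -0.48 in Atf6, -0.68 in Ern1, -0.46 in Derl3, -0.44 in Edem1 and -0.30 in Derl1. It lay above it by 0.73 in Sdf2l1, 0.42 in Dnajb11 and 0.41 in Pdia4. Atf6, Edem1, Derl1 and Sel1l were among the genes lower in KO within both code ranges, whereas Hspa5 was lower within codes B114 to B125 only.

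**Figure D5:**
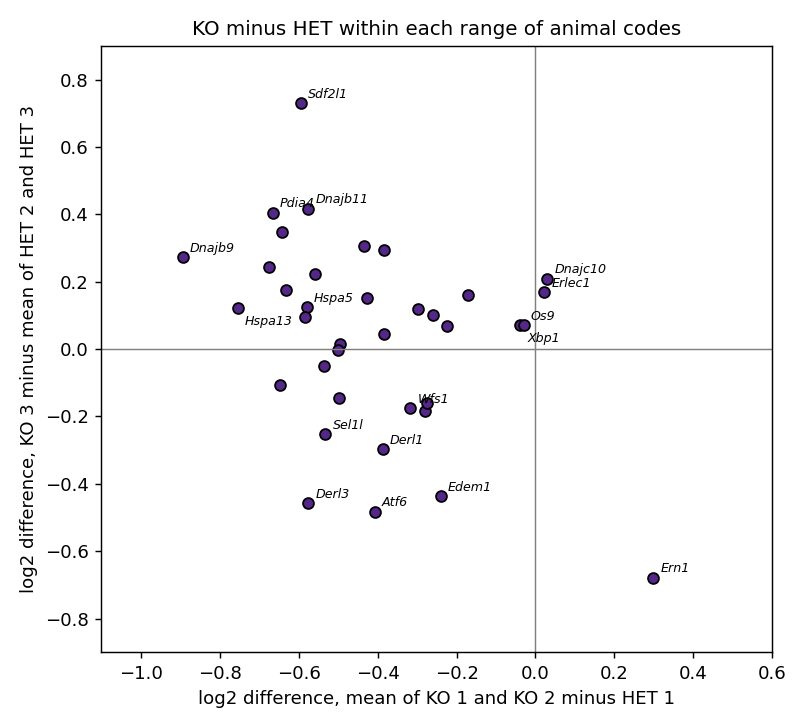
Log2 difference between KO and HET within each range of animal codes for the 37 genes, with the mean of KO 1 and KO 2 minus HET 1 on the horizontal axis and KO 3 minus the mean of HET 2 and HET 3 on the vertical axis. Nearly all genes lie left of 0, while they scatter on both sides of 0 vertically, from -0.68 in Ern1 to 0.73 in Sdf2l1.

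With the animal code range as a block, the members leaned lower in KO, and still none passed. The KO minus HET difference was negative for 32 of 37 members (86.5%, against 39.9% of all genes), with a median of -0.22, against 0.05 over all genes. An unadjusted p under 0.05 was reached by 5 members, all lower in KO, where 1.72% of all genes reached it in that direction: Atf6 (log2 difference -0.45), Sel1l (-0.39), Derl1 (-0.34), Edem1 (-0.34) and Derl3 (-0.52). After adjustment 0% of all genes passed and the lowest adjusted p of a member was 0.825. The block was cut where these libraries were already known to divide, so its counts and p-values are descriptions only. HET 1 is the only HET library at the lower codes, and KO 3 the only KO library at the higher codes. All 11 members with an ERSE or ERSE-II had negative differences in this fit, against 4 of 11 without the block. The ERAD median was -0.32 in this fit. With the acinar share as a covariate instead, 28 members had negative differences, against 6423 of the 14238 genes tested. The median was -0.10, against 0.02 over all genes. By limma 4 members (Atf6, Derl1, Edem1 and Wfs1) had an unadjusted p under 0.05, all lower in KO, against 2.54% of all genes. The lowest adjusted p was 0.554, for Atf6. Leaving out HET 1, with no covariate, turned the direction. The members' median log2 difference was then 0.10, and 16 members had lower means in KO. The all-gene values beside that median and that count are not given here. All KO libraries lay above both remaining HET libraries for 10 members, against 13.7% of all genes, and below them for 5, against 19.4%. Both of those HET libraries have the higher codes, while KO 1 and KO 2 have the lower ones. That fit therefore mixes genotype with the code range.

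Other genes of the same pathways were called in no list, in either direction (0 of the tested genes in each, limma adjusted p of 0.05). Among other ER folding and redox genes, 23 of 32 tested had a lower mean in KO and 9 a higher one, with a median of -0.13. With the animal code block 21 of the 32 were lower. Over all genes tested, 48.6% had a lower mean in KO, and 39.9% did with the block. Mogs, the glucosidase that removes the first glucose from new N-glycans, had 43.1, 46.2 and 68.2 RPM in KO libraries and 67.6, 75.2 and 78.5 RPM in HET libraries, a difference of -0.51. Ero1l, the oxidase that recharges protein disulfide isomerase, had 34.1, 39.3 and 52.9 RPM in KO libraries and 37.05, 99.3 and 103 RPM in HET libraries, a difference of -0.79. KO 3, the highest KO library in both genes, exceeded HET 1 in both.

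Other regulators of the unfolded protein response had lower means in KO for 14 of 15 tested genes and a higher mean for 1. Their median was -0.15, and 48.6% of all genes were lower. The 1 higher gene was Crebrf, which restrains the factor CREB3, with 45.4, 46.2 and 32.8 RPM in KO libraries and 35.7, 32.1 and 30.5 RPM in HET libraries (difference 0.32). Dnajb12, a DnaJ protein of the ER membrane, had 35.2, 32.4 and 40.4 RPM in KO libraries and 36.1, 48.4 and 52.0 RPM in HET libraries (difference -0.32). Under the animal code block 11 of these 15 genes were lower (39.9% of all genes), so the lean was smaller there.

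For other ERAD genes the means were lower in KO for 22 and higher for 9 of 31, with a median of -0.07. With the animal code block 17 of the 31 were lower, against 39.9% of all genes. Rnf185, a ubiquitin ligase of the ER membrane, had 37.6, 40.4 and 39.4 RPM in KO libraries and 41.9, 47.8 and 56.8 RPM in HET libraries (difference -0.30). Named for the lowest p of its list, it was 1 of the 31 whose KO libraries all lay below HET, against 1.54% of all genes. Man1a, a mannosidase, had 82.1, 74.0 and 86.1 RPM in KO libraries and 72.6, 124.6 and 123.3 RPM in HET libraries (difference -0.36). For the translocon, signal peptidase and oligosaccharyltransferase, 26 of 36 were lower and 10 higher, with a median of -0.12. The block left 23 of these 36 lower. Srprb, a subunit of the receptor for the signal recognition particle, had 52.8, 58.4 and 76.6 RPM in KO libraries and 85.5, 76.7 and 76.0 RPM in HET libraries (difference -0.35). Sec61a2, the paralog of Sec61a1, had 14.0, 20.0 and 15.5 RPM in KO libraries and 14.97, 11.9 and 11.6 RPM in HET libraries (difference 0.33).

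The output genes of PERK and the integrated stress response had the lowest median of these lists, -0.39 over 16 tested genes. Of these, 13 were lower in KO and 3 higher, where 48.6% of all genes were lower. With the animal code block 14 of the 16 were lower, against 39.9% of all genes. Nupr1, a small stress-induced chromatin protein, had 30.4, 40.9 and 60.3 RPM in KO libraries and 119, 97.4 and 115 RPM in HET libraries. Every KO library was well below every HET library, and the log2 difference was -1.36 (95% interval -1.95 to -0.77; limma unadjusted p = 0.000795, adjusted p at least 0.9998). Cebpb, a transcription factor downstream of ATF4, had 13.9, 14.5 and 14.8 RPM in KO libraries and 18.9, 29.5 and 38.8 RPM in HET libraries, again without overlap (difference -0.91). Nupr1 and Cebpb were named for the lowest p of the list. They were the 2 of its 16 genes with all KO libraries below HET, against 1.54% of all genes. The following genes were picked after their values were seen. Atf4 mRNA, which is controlled mainly at translation, had 297, 326 and 290 RPM in KO libraries and 386, 283 and 387 RPM in HET libraries. Atf3 followed the animal code, with 99.8, 222 and 6.41 RPM in KO libraries and 394, 6.45 and 10.5 RPM in HET libraries. Trib3, a target of ATF4, ran the other way, with 28.4, 21.1 and 51.0 RPM in KO libraries and 27.6, 93.4 and 140 RPM in HET libraries. Genes assigned to the same stress response were thus high in different libraries.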

How the data were processed

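Poly(A) RNA of whole islets was sequenced, 1 library per animal code, 3 KO and 3 HET. The genotype label set each library's group. Replicate numbers only follow the order of the records. HISAT2, DESeq2 and GRCm38 are named in the submitters' processing notes, with neither version nor role. The authors deposited log2 values for 34245 genes. Read as log2 RPM, with a gene without reads written as 0.9 read, they gave whole reads (tolerance 0.01 read) for 100% of the 93649 values below 1000 reads, so reads were recovered.

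The values being log2, limma's moderated test (limma 3.58.1, R 4.3.3; trend and robust) was run on log2(RPM + 1) over the 14238 genes averaging 1 RPM or more, with Benjamini-Hochberg adjustment at 0.05. Differences are KO minus HET on that scale, where changes of weakly expressed genes come out too small; intervals are 95%. The count test named in the design for whole counts was not used. Alternatives were other scalings, filters, pseudocounts, moderation, limma-voom on the recovered reads, the animal code block, the acinar covariate and leaving out each library. The script was tested on simulated data. Libraries of a group differed beyond sampling noise (chi-square per degree of freedom 17.8 to 227.5).

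Positions of 29429 genes (85.9%) equalled GENCODE M21; 33 members took identifiers by position and 4 (Hspa13, Dnajc3, Creld2 and Derl1) by symbol. Exon lengths are unions of GENCODE exons. Named genes were all members, with every library for the sensors, for the most abundant and the 2 lowest-p members of each role and for those spanning over 2-fold, plus the 2 lowest-p genes of each pathway list. The members, gene lists and code cut were chosen with earlier results of these data known. Figures were drawn with matplotlib 3.10.9.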

Additional observations from a re-analysis of the deposited data

How the results depend on the processing

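No gene was called in any of the 17 fits, and the lowest adjusted p of a member in any of them was 0.396. At an unadjusted p under 0.05, limma gave 250 genes, limma-voom 252, the animal code block 767 and the acinar covariate 987. Of 592 recomputed member differences, 522 kept their direction and 70 took the opposite one, in 22 members; 44 of the 70 came from leaving out a library. The ERAD median was -0.32 with the animal code block, against -0.09 without it. Leaving out each library in turn gave an ERAD median of -0.25 to 0.059, a median over all members of -0.15 to 0.10, 16 to 35 members with a lower mean in KO, 3 to 12 members whose KO libraries were all lower (2.18% to 19.4% of all genes) and 0 to 10 whose KO libraries were all higher (6.34% to 14.2% of all genes). The extremes for all-lower and all-higher counts came without KO 3 (12, against 9.15% of all genes) and without HET 1 (10, against 13.7%), and the count of 35 without HET 2. For the medians and the counts of lower means, the all-gene values of these fits are not given here. Shifts of the members alone therefore cannot be read from them. Leaving out HET 1 also leaves no HET library at the lower codes. The cause was not tested. Scaling moved the median of all genes by less than 0.1. It gave 25 (median of ratios) or 21 (upper quartile) members with a lower mean in KO, against 22. The shares of all genes moved alike, to 53.4% (median of ratios) and 45.6% (upper quartile), against 48.6%. Differences below about 2-fold in the most variable members lie within the spread of 3 libraries a group. No paired analysis was possible because the replicate numbers follow the order of the records.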

Other observations

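Cytosolic and mitochondrial heat shock genes, which answer misfolded protein outside the ER, were picked here after their values were seen. Hspd1 and Hspe1 are the mitochondrial genes of the list. All 9 tested genes of that list had a higher mean in KO, with a median log2 difference of 0.99, and limma called none of them. Hspa1a had 509, 513 and 217 RPM in KO libraries and 406, 63.4 and 52.7 RPM in HET libraries, and its near-identical neighbour Hspa1b, so that the division of reads between them is uncertain, had 556, 605 and 183 RPM in KO libraries and 491, 58.0 and 47.3 RPM in HET libraries. Both were thus higher in KO within each range of animal codes, where Hspa5 in the lower codes was higher in HET 1. Dnajb1 had 464, 524 and 24.7 RPM in KO libraries and 675, 21.8 and 23.0 RPM in HET libraries, following the animal code. With the animal code block the median of the list was 0.06, with 6 genes higher and 3 lower in KO.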
